A study of Rattus norvegicus with 6 samples.

Results

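Oxidative phosphorylation is the process by which mitochondria turn electrons from NADH and succinate into ATP. The nuclear genes of its machinery were described here complex by complex in tickled rats. Members were taken by gene symbol, with no use of measured values: symbols starting with Ndufa, Ndufb, Ndufc, Ndufs or Ndufv (Ndufaf left out) for complex I, Sdha to Sdhd for complex II, Uqcr for complex III, Cox4 to Cox8 for complex IV and Atp5 for ATP synthase. The rule found 79 genes on 129 probes, of 14871 genes on the 23535 probes with 1 gene symbol among 44290 features. Complex I had 34 genes, complex II 4, complex III 8, complex IV 15 and ATP synthase 18. A value was present for 78 members on the striatal and salivary arrays and for 70 on the leukocyte arrays. The sperm isoform gene Cox8c had no value on any array. Cox6b2, Cox7c, Cox8b, Ndufa7, Ndufb10, Ndufc1, Ndufs1 and Ndufs4 lacked one in leukocytes. The annotated pseudogene Ndufs6-ps1 met the rule and was kept.

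Male rats of the outbred Wistar strain were tickled by hand and set against rats that were lightly touched or left unstimulated. The animals were 60 days old, had been housed singly since 21 days of age and numbered 4 per condition, and stimulation ran for 4 weeks, alternating 15 s of rest with 15 s of stimulation. Tickling evokes ultrasonic calls at about 50 kHz, taken as a sign of positive affect, and light touch shares the handling without the play. Striatum, salivary glands and peripheral leukocytes were each hybridised to 2 two-colour arrays, with tickled RNA in Cy5 and either no-stimulus or light-touch RNA in Cy3. An array is therefore a comparison, and every value below is a log ratio of tickled over the comparator named, taken as log2. The log base is not stated with the values, and as natural logs they would be 1.44 times larger on the log2 scale. The design text puts 1 replicate on an array, and the sources used here do not give whether that is a pool or 1 animal, or whether the tickled extract is the same on the arrays of a tissue, and the labels' extraction text names hypothalamus for all samples.

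Each comparison has 1 array with no dye swap, so there is no p-value or standard deviation over animals, and precision is limited by the number of arrays. Error could be read only from how far probes of the same gene differed, and the median SD over the probes of a member was 0.11, 0.09, 0.11, 0.09, 0.15 and 0.26 over the striatal, salivary and leukocyte arrays, the no-stimulus array of each tissue given before its light-touch array. The striatal arrays had values for 10922 and 10835 genes, the salivary ones for 10522 and 10716, and the leukocyte ones for 6316 and 6182. Of 9 medium spiny neuron markers on the platform, 9 had values on the striatal arrays and 2 on the leukocyte arrays. Of 6 salivary acinar markers, 6 had values on the salivary arrays and 0 on the leukocyte arrays. Of 7 leukocyte markers, 6 and 7 had values on the leukocyte arrays, but so did 6 and 7 on the salivary arrays and 4 on each striatal array.

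Complex I oxidises NADH through a matrix arm that carries a flavin and iron-sulfur clusters, and complex II feeds in electrons from succinate. Complex III passes them by cytochrome c to complex IV, which reduces oxygen, while complexes I, III and IV pump protons that drive ATP synthase. Mitochondrial DNA encodes further core subunits, which the rule does not include. The nuclear genes are known to share promoter motifs for NRF1, for ETS factors such as GABPA, and for YY1, and tissues with a high energy demand such as striatum and secretory gland depend on the pathway.

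Promoter sequences were in the RefSeq table of assembly GRCr8 for 69 of the 79 members and were searched from 250 bases before to 30 bases after the annotated start, on both strands. The NRF1 motif, GCGCA and GCGC with 1 free base (N) between them, was in 14 of them (20.3%), against 4.59% of 27457 promoters. The ETS motif CCGGAAG was in 20 (29%, against 8.9%) and the YY1 motif AAGATGGC in 11 (15.9%, against 2.98%). At least 1 of the motifs was in 38 (55.1%, against 14.9%), and 0 matches of different motifs overlapped. NRF1 matches in Ndufa11, of 10 bases each with first bases at -97 and -91 from the start, overlapped each other. By complex, a motif was present in 16 of 30 promoters of complex I, 4 of 4 of complex II, 4 of 6 of complex III, 4 of 12 of complex IV and 10 of 17 of ATP synthase; the NRF1 motif was in 0 of the 12 complex IV promoters and in 6 of the 17 of ATP synthase. The following 4 promoters are shown because their motif content differs, with the motifs in capitals as read on the printed strand. Atp5me (chr14:1464610-1464889, plus strand), a membrane subunit of ATP synthase, was the only member with all 3 motifs. Atp5mk (chr1:255922018-255922297, minus strand) held an ETS match and had the lowest leukocyte value versus lightly touched rats. Uqcrc1 (chr8:118467973-118468252, plus strand), a core subunit of complex III, held an NRF1 and a YY1 match. Ndufc1 (chr2:137601706-137601985, minus strand), a small membrane subunit of complex I with the highest striatal value versus unstimulated rats, held none.
Atp5me: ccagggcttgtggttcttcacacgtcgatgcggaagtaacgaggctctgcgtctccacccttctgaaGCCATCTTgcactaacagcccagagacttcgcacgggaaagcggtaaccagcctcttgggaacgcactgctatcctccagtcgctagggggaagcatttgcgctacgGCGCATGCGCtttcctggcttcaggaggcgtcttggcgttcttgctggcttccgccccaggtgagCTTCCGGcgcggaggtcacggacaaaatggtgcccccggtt
Atp5mk: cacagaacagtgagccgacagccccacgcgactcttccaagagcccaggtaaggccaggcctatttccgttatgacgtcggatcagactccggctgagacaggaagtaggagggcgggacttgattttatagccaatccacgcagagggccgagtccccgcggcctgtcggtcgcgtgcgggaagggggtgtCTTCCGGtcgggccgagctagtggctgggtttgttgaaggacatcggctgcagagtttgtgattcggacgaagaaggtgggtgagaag
Uqcrc1: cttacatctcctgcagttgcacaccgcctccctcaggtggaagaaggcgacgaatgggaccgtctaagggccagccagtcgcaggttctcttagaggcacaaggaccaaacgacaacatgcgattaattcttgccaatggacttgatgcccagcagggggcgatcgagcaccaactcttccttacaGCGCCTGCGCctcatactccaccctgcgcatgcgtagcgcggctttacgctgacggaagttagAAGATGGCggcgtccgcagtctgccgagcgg
Ndufc1: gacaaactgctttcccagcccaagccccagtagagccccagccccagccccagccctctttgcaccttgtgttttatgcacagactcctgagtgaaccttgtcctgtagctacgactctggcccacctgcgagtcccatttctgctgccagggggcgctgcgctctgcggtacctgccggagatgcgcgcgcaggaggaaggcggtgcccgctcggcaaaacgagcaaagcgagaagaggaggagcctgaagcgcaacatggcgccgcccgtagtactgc

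Members with a motif did not stand apart from members without one in the same direction on all arrays. Their medians were 0.04 against 0.09 in striatum versus unstimulated rats and -0.03 against -0.02 versus lightly touched rats. In salivary glands they were -0.01 against -0.01 versus unstimulated rats and -0.06 against -0.01 versus lightly touched rats. For leukocytes they were -0.07 against -0.11 versus unstimulated rats and -0.16 against -0.12 versus lightly touched rats. These medians differed by at most 0.05. For the ETS motif alone, the leukocyte medians versus lightly touched rats lay further apart, at -0.24 over 19 members with it and -0.09 over 41 without it. A match describes the letters in the window only.

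Most complex medians lay close to 0, and the complexes took somewhat different positions in the 3 tissues. In striatum versus unstimulated rats, the medians were 0.05 for complex I, 0.12 for complex II, -0.02 for complex III, 0.10 for complex IV and 0.04 for ATP synthase, with -0.02 for all genes. Versus lightly touched rats they were -0.01, 0.02, -0.00, 0.02 and -0.07 in the same order of complexes, with -0.00 for all genes. Complexes II and IV thus had the highest striatal medians on both arrays. In salivary glands the medians were -0.01, 0.01, 0.00, -0.01 and -0.07 versus unstimulated rats, and -0.05, -0.04, -0.02, -0.01 and -0.08 versus lightly touched rats, with -0.01 and -0.00 for all genes. In leukocytes they were -0.06, -0.05, -0.08, -0.05 and -0.10 versus unstimulated rats, and -0.08, -0.06, -0.00, -0.17 and -0.22 versus lightly touched rats, with 0.01 for all genes on each array. ATP synthase had the lowest median of the 5 complexes on every array other than striatum versus unstimulated rats, and all leukocyte medians were below that of all genes. Subtracting each gene's median in the other tissues turned the ATP synthase median to 0.024 in striatum versus lightly touched rats and to 0.0031 in salivary glands versus unstimulated rats, and with RefSeq probes alone complex IV versus unstimulated rats had 0.039 in salivary glands and 0.015 in leukocytes. In bulk tissue, fewer cells of a type and less RNA per cell cannot be told apart.

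**Figure D1:**
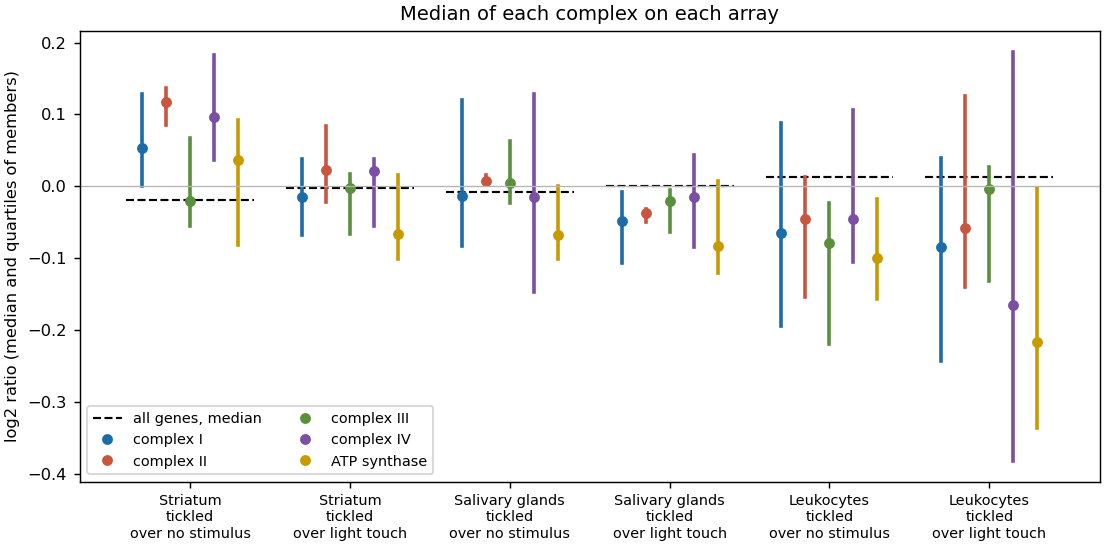
Median (point) and quartiles (bar) of the log2 ratios of each complex's members on each of the 6 arrays, with the median of all genes as a dashed line. ATP synthase reaches -0.22 in leukocytes versus lightly touched rats, and complexes II and IV lie at 0.12 and 0.10 in striatum versus unstimulated rats.

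In striatum versus unstimulated rats, 56 of 78 members were above 0, against 45.1% of all genes. By complex these were 25 of 34 in complex I, 3 of 4 in complex II, 4 of 8 in complex III, 12 of 14 in complex IV and 12 of 18 in ATP synthase. Few of them were far from 0. A difference was counted when a gene was at least 25% higher or, the inverse ratio, at least 20% lower, and again at 1.5-fold. Here 4 members were at least 25% higher (3.65% of all genes), 1 was at least 20% lower (5.35%), 1 was at least 1.5-fold higher (0.485%) and 0 were 1.5-fold lower (0.787%). Versus lightly touched rats, 35 of 78 members were above 0 (49.1%). There, 0 members were at least 25% higher (2.92%) and 0 were at least 20% lower (2.7%), so 0 passed 1.5-fold either way (0.812% higher and 0.545% lower of all genes). The range over members was -0.19 to 0.29.

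In salivary glands, 34 of 78 members were above 0 versus unstimulated rats (48.2% of all genes) and 20 of 78 versus lightly touched rats (50%). Versus unstimulated rats, 5 members were at least 25% higher (8.33%) and 1 was lower (8.27%). Versus lightly touched rats, 3 members were at least 25% higher (3.71%) and 0 were lower (3.82%). The 1.5-fold threshold was passed by 0 members higher (2.94%) and 1 lower (2.74%) versus unstimulated rats, and by 0 higher (0.877%) and 0 lower (0.747%) versus lightly touched rats. The 4 genes of complex II lay between -0.07 and 0.03 on both arrays. In leukocytes, 23 of 70 members were above 0 versus unstimulated rats (52%) and 22 of 70 versus lightly touched rats (51.4%). Of these arrays, the no-stimulus one had 2 members at least 25% higher (13.4%) and 12 lower (14.4%), and the light-touch one had 6 higher (20.6%) and 16 lower (17.7%). The counts of lower members were thus not far from the background for the leukocyte arrays, where all genes spread more widely, while higher members were fewer than the background. At 1.5-fold, 0 members were higher (3.21%) and 1 lower (2.9%) versus unstimulated rats, and 1 was higher (8.09%) and 3 lower (5.06%) versus lightly touched rats.

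**Figure D2:**
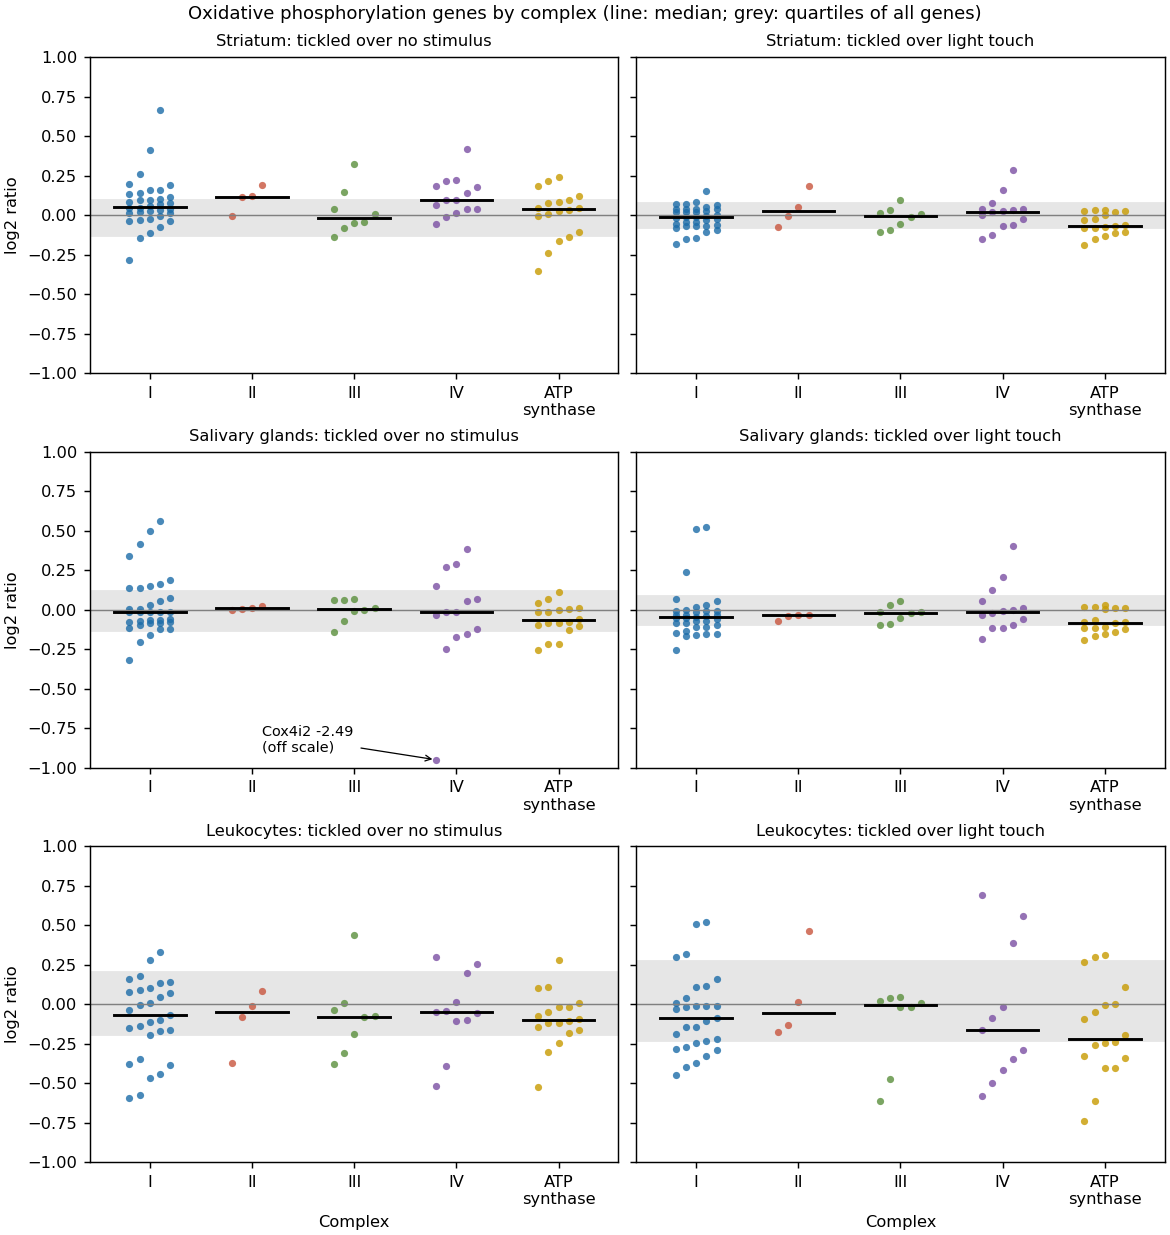
Log2 ratio of every member (points) on each of the 6 arrays, by complex, with the median of the complex as a line and the quartiles of all genes in grey; Cox4i2 at -2.49 is drawn at the lower edge of its panel. Few members lie far from the grey band in striatum and salivary glands. Members above 0 number 23 and 22 of 70 on the leukocyte arrays, and 20 of 78 in salivary glands versus lightly touched rats.

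Within complex I, the NADH-oxidising module at the tip of the matrix arm held members on both sides of 0. Ndufv2, an iron-sulfur subunit next to the flavin, had 0.41 in striatum, 0.56 in the glands and 0.33 in leukocytes versus unstimulated rats. Versus lightly touched rats it had 0.02, 0.05 and -0.33 in the same tissues. Ndufv2 was thus high versus unstimulated rats in all 3 tissues and not versus lightly touched rats in any. It was the only one of 70 members at least 25% higher on the no-stimulus arrays of all 3 tissues, as were 10 of 5896 genes (0.17%), and 0 members were at least 20% lower on all 3 (0.0339%). On the light-touch arrays of all 3 tissues 0 members were higher (0.0514%) and 0 lower (0.103%). Ndufv1, its partner that binds NADH and the flavin, had -0.28 and -0.06 for striatum, -0.32 and -0.25 for salivary glands, and 0.10 and -0.10 for leukocytes, versus unstimulated and lightly touched rats. The pair lay on opposite sides of 0 on both brain and both gland arrays. Each of these genes rests on 1 probe, so probe disagreement cannot be given.

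The other core subunits of the matrix arm lay close to 0 in striatum and salivary glands. Ndufs1, an iron-sulfur subunit, had -0.15 and -0.00 for striatum and -0.07 and -0.11 for the glands, versus unstimulated and lightly touched rats. Ndufs3, Ndufs7 and Ndufs8, which belong to the ubiquinone-binding module, ranged from -0.15 to 0.08 on the 4 arrays of these tissues. In leukocytes Ndufs8 had -0.39 versus unstimulated rats and -0.19 versus lightly touched rats. Ndufs7 had 0.07 and 0.51, and Ndufv3, a small accessory subunit of the NADH module, had -0.10 and 0.52. These 2 were the only ones of 29 complex I members at least 25% higher in leukocytes versus lightly touched rats, against 20.6% of all genes.

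Among the accessory subunits of complex I, Ndufc1 had the highest striatal value, 0.67 versus unstimulated rats, against 0.15 versus lightly touched rats. In salivary glands it had 0.50 versus unstimulated rats and 0.51 versus lightly touched rats. It was therefore high on 3 of the 4 arrays that measured it, all from 1 probe, which has no RefSeq accession. In striatum versus unstimulated rats such probes were higher in 19 of 23 members with both kinds. Ndufb10, a membrane-arm subunit, had 0.34 and 0.52 in salivary glands, against 0.12 and -0.05 in striatum. Its 2 probes, both without a RefSeq accession, had 0.35 and 0.33 in glands versus unstimulated rats and 0.25 and 0.80 versus lightly touched rats. Ndufa9, which sits near the ubiquinone site, had 0.42 and 0.24 in salivary glands, but its probes disagreed, with 0.06 and 0.77 versus unstimulated rats.

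In leukocytes, 7 of 29 complex I members were at least 20% lower versus unstimulated rats (14.4% of all genes), and 6 of them belong to the accessory subunits or to Ndufa4. Ndufc2, a membrane-arm subunit, had -0.59 versus unstimulated rats and -0.23 versus lightly touched rats, and Ndufa2, a small matrix subunit, had -0.57 and -0.29. Ndufa6 had -0.47 and -0.40, and Ndufs5 had -0.44 and -0.29. Ndufab1, the mitochondrial acyl carrier protein, had -0.38 and -0.22. All of these lay below 0 on both leukocyte arrays, and of these 5 only Ndufa6 was at least 20% lower on both. Ndufa4, named as a complex I subunit but now assigned to complex IV, had -0.35 and -0.45, and its value rested on 1 of its 4 probes in leukocytes. That probe has no RefSeq accession. Ndufb7, by contrast, had 0.18 and 0.32.

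The 4 genes of complex II, which links the citric acid cycle to the respiratory chain, lay between -0.07 and 0.19 on the striatal and salivary arrays. Sdhc, a membrane anchor, had 0.19 and 0.18 in striatum versus unstimulated and lightly touched rats, and the catalytic flavoprotein Sdha had -0.00 and -0.07. In leukocytes the iron-sulfur subunit Sdhb had 0.08 versus unstimulated rats and 0.47 versus lightly touched rats. Sdhd, the other anchor, had -0.37 and -0.18. The subunits of this small complex thus lay on either side of 0 in leukocytes, with a spread of over 0.4 on each array.

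Complex III showed the same divergence in leukocytes. The core protein Uqcrc1 had 0.44 versus unstimulated rats and 0.01 versus lightly touched rats, while its partner Uqcrc2 had -0.31 and -0.02. Uqcrfs1, the Rieske iron-sulfur protein, had -0.19 and 0.04. Uqcrq, a small subunit beside cytochrome b, had -0.38 and -0.61, and Uqcrh, the hinge protein at the cytochrome c site, had -0.03 and -0.47. Of the 8 genes of the complex, Uqcrq and Uqcrh were at least 20% lower versus lightly touched rats (17.7% of all genes). Uqcrq alone was so versus unstimulated rats (14.4%). In striatum Uqcrq had 0.32 versus unstimulated rats and -0.11 versus lightly touched rats, and the other complex III members lay between -0.14 and 0.15. Uqcrq rests on 1 of its 2 probes, which has no RefSeq accession.

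Cytochrome c oxidase, complex IV, contains subunits with tissue isoforms, which allowed paralogs to be set side by side. Cox4i1, the widespread isoform of the regulatory subunit, had 0.04 and -0.15 for striatum, -0.12 and -0.19 for salivary glands, and -0.05 and -0.08 for leukocytes, versus unstimulated and lightly touched rats. Cox4i2, the isoform known from lung and from low-oxygen conditions, had -2.49 in salivary glands versus unstimulated rats and -0.00 versus lightly touched rats. Its values were 0.04 and 0.08 in striatum and 0.25 and 0.56 in leukocytes. The salivary value was the largest of any member, on 1 probe and 1 array. The mean of complex IV on that array was -0.15 with Cox4i2 and 0.03 without it, and the median was -0.01 either way. On the same array the median of 5 salivary duct markers was 3.03 (-0.19 versus lightly touched rats), with all 5 of them above 0, and that of 6 adipocyte markers was -0.74 (0.84 versus lightly touched rats). The part of these cell types in the Cox4i2 value was not tested.

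Cox6a2, the heart and skeletal muscle isoform of a subunit whose widespread form is Cox6a1, was above 0 on all 6 arrays. It had 0.42 and 0.29 for striatum, 0.38 and 0.40 for salivary glands, and 0.30 and 0.69 for leukocytes, versus unstimulated and lightly touched rats. Cox6a1 had 0.07 and 0.04, -0.02 and 0.05, and 0.20 and -0.02 in the same order. Cox6a2 was thus the higher of the pair on every array. Its 2 probes with values differed: 1 had 0.64, 0.45, 0.72, 0.75, 0.30 and 0.35 in that order of arrays and the other had 0.19, 0.12, 0.05, 0.06, 0.29 and 1.04. The first probe therefore carries the striatal and salivary values and the second the leukocyte value versus lightly touched rats. Skeletal muscle markers gave a median of 0.02 and 0.01 for striatum (5 of 10 valued), -0.15 and -0.08 for salivary glands (7 of 10), and 0.17 and 0.40 for leukocytes (4 and 2 of 10). The markers Ckm, Myh4 and Casq1 had no value on any array, and the part of muscle in the Cox6a2 values was not tested. Cox8b, the muscle and brown fat isoform, had 0.21 and 0.04 for striatum and 0.27 and 0.01 for the glands, against 0.14 and -0.06, and -0.17 and -0.12, for Cox8a. The 3 probes of Cox8b disagreed in glands versus unstimulated rats, at -0.42, 0.27 and 0.43. Brown adipocyte markers had medians of 0.39 and -0.03 on the salivary arrays over 3 genes, with Ucp1 and Elovl3 without a value, and their part in the Cox8b values was not tested. The sperm isoform Cox6b2 had 0.22 and 0.16 for striatum and 0.29 and 0.20 for the glands.

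The remaining complex IV genes were near 0 in striatum and salivary glands and mostly lower in leukocytes. Cox5a had 0.10 and -0.12 in striatum and 0.01 and -0.17 in leukocytes, versus unstimulated and lightly touched rats. Cox6c, a membrane subunit, had -0.51 and -0.35 in leukocytes, against 0.18 and 0.02 in striatum. Cox7a2l, which takes part in joining complexes III and IV, had -0.39 and -0.58 in leukocytes, Cox7b had -0.11 and -0.50, and Cox7a2 had -0.05 and -0.42. Of the 11 complex IV genes measured versus lightly touched rats, 4 were at least 20% lower (17.7% of all genes) and 3 at least 25% higher (20.6%), so the count of higher genes was near the background. The higher ones were Cox6a2, Cox4i2 and Cox5b, the last with -0.04 versus unstimulated rats and 0.39 versus lightly touched rats. The 2 probes of Cox5b had 0.42 and 0.36 versus lightly touched rats, so they lay close together.

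ATP synthase gave the lowest medians in leukocytes, with 4 of 18 genes above 0 on each array (52% and 51.4% of all genes). With RefSeq probes alone the median was -0.11 on each array, against -0.10 and -0.22 with all probes. Versus lightly touched rats 6 of the 18 were at least 20% lower (17.7% of all genes) and 0 were at least 25% higher (20.6%). All 6 encode parts of the membrane sector or the peripheral stalk, as do most of the 18 genes. Of the same parts, Atp5mc1 (0.11), Atp5pd and Atp5po lay above 0 versus lightly touched rats. Among the 6, Atp5mpl and Atp5mf have no RefSeq probe, while Atp5mc2 and Atp5pb had -0.16 and -0.21 by RefSeq probes. Atp5mk, a small membrane protein also called DAPIT, had -0.52 versus unstimulated rats and -0.74 versus lightly touched rats. The small proteolipid Atp5mpl had -0.05 and -0.61, subunit g (Atp5mg) had -0.09 and -0.40, and the stalk subunit b (Atp5pb) had -0.30 and -0.40. Subunit f (Atp5mf) had -0.18 and -0.33, and the ring subunit gene Atp5mc2 had -0.16 and -0.34. Genes of the catalytic sector (the head and the central stalk) had leukocyte values from RefSeq probes alone. With all probes they were nearer 0 than these 6, or above it, versus lightly touched rats. Atp5f1a (alpha) had 0.10 and -0.01, Atp5f1b (beta) had -0.11 and -0.25, Atp5f1c (gamma) had -0.12 and -0.05, and Atp5f1d (delta) had -0.02 and 0.30. By RefSeq probes, however, Atp5pb and Atp5mc2 were nearer 0 than Atp5f1b versus lightly touched rats. Probes without a RefSeq accession were lower in 9 of 10 members with both kinds on that array. Atp5po, which joins the stalk to the head, had -0.25 versus unstimulated rats and 0.31 versus lightly touched rats. Atp5pd, another stalk subunit, had 0.28 and 0.27, and its probes disagreed on both arrays (0.68 and -0.12 versus unstimulated rats, 0.59 and -0.05 versus lightly touched rats). The membrane subunit Atp5me had 0.01 and -0.24. The inhibitor gene Atp5if1 had 0.11 and -0.19.

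**Figure D3:**
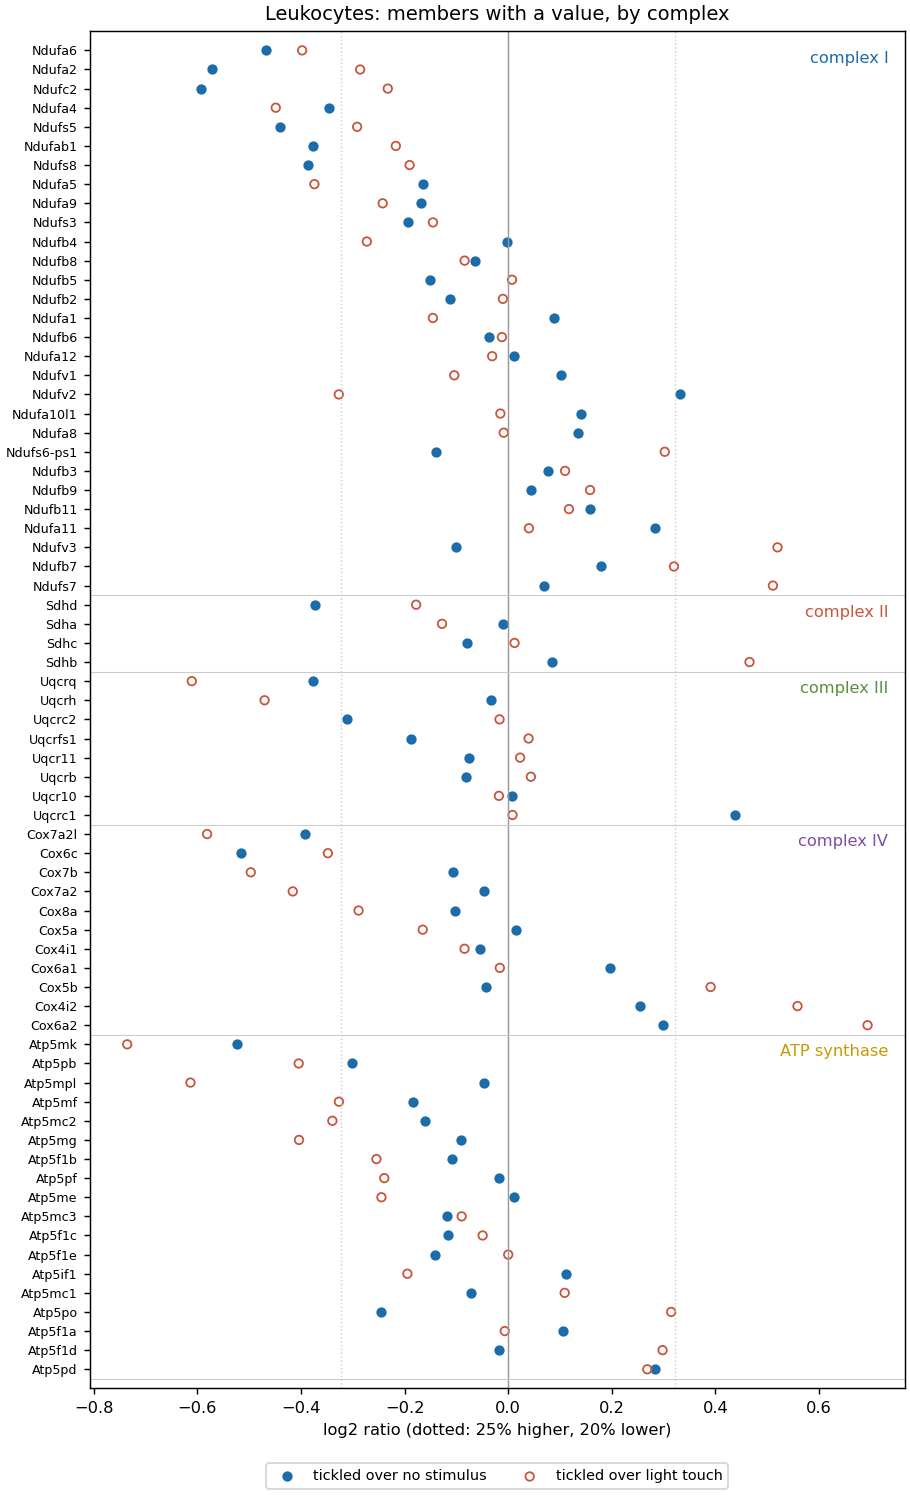
Log2 ratio of each member with a value in leukocytes, versus unstimulated rats (filled) and versus lightly touched rats (open), grouped by complex and ordered by the mean of both; dotted lines mark 25% higher and 20% lower. Atp5mk (-0.52 and -0.74), Cox7a2l (-0.39 and -0.58) and Ndufa6 (-0.47 and -0.40) are among the members left of the lower line on both arrays.

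In striatum the same complex looked different. Atp5f1a had -0.35 versus unstimulated rats and -0.13 versus lightly touched rats and was the only member at least 20% lower on a striatal array. Atp5f1b had -0.17 and -0.15, and Atp5f1d had -0.24 and -0.19, so these 3 genes of the catalytic sector lay below 0 on both arrays. The other genes of that sector were Atp5f1c, with -0.00 and -0.07, and Atp5f1e, with 0.09 and 0.02. The 3 membrane subunits furthest above 0 versus unstimulated rats had 0.24 for Atp5mf, 0.21 for Atp5mpl and 0.19 for Atp5mg, against -0.03, -0.11 and 0.03 versus lightly touched rats. The ring subunit genes Atp5mc1 and Atp5mc3 had -0.14 and -0.11 versus unstimulated rats. Atp5mf and Atp5mpl have no RefSeq probe, while Atp5f1a, Atp5f1b and Atp5f1d each rest on 1 RefSeq probe. In striatum versus unstimulated rats, probes without a RefSeq accession were higher in 19 of 23 members with both kinds. Cortical neuron markers were low on both striatal arrays, with medians of -0.89 and -0.96 over 5 genes and none above 0, astrocyte markers had 0.23 and 0.04 and oligodendrocyte markers 0.23 and 0.13. Medium spiny neuron markers had -0.11 and 0.00 over 9 genes. The part of these cell types in the member values was not tested.

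Light touch relative to no stimulus can be derived as the no-stimulus array minus the light-touch array, which holds only if both carry the same tickled RNA. In striatum the derived values of 60 of 78 members were above 0, against 44% of all genes, with a median of 0.07. Complex IV had the highest derived median, 0.10, and complex III the lowest, -0.03. Of the members, 4 were at least 25% higher (2.51%): Ndufc1 at 0.51, Uqcrq at 0.43, Ndufv2 at 0.39 and Ndufa4 at 0.34, and 0 were at least 20% lower (3.67%). Ndufc1, Uqcrq and Ndufa4 had striatal values only from probes without a RefSeq accession. In striatum such probes were higher in 19 of 23 members with both kinds versus unstimulated rats, and in 4 of 23 versus lightly touched rats. With RefSeq probes alone the derived striatal median of ATP synthase was 0.019, against 0.062 with all probes. In salivary glands 47 of 78 members were above 0 (47.7%), with a median of 0.03, 1 member at least 25% higher (6.76%) and 1 lower (6.54%), which were Ndufv2 at 0.51 and Cox4i2 at -2.49. In leukocytes 37 of 70 were above 0 (46.3%), 6 were at least 25% higher (13.9%) and 8 lower (18.2%), and the medians were 0.18 for complex IV, 0.13 for ATP synthase and -0.14 for complex II. Ndufv2, at 0.66 in leukocytes, was the only member at least 25% higher in all 3 tissues, as were 4 of 5490 genes (0.0729%), and 0 members were at least 20% lower in all 3 (0.0364%). Within ATP synthase, Atp5mpl (0.57) and Atp5po (-0.56) lay on opposite sides in leukocytes. The complex IV median there was -0.39 when only genes with agreeing probes were used, of which there were 7 over all complexes. These values use the same 2 arrays as the ratios above and add no measurement.

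How far the striatal shift went depended on the kind of probe. Of the 129 member probes, 83 carried a RefSeq accession in the platform annotation and 46 another GenBank accession, and 23 genes had a value from each kind on the striatal and salivary arrays. In striatum versus unstimulated rats, the other probe was the higher one in 19 of 23 of these genes, with a median difference (other minus RefSeq) of 0.15, and versus lightly touched rats it was higher in 4 of 23, with -0.12. For all genes with both kinds the differences were 0.13 (71.1% higher) and 0.01 (52.8%). In salivary glands the median differences were -0.12 (6 of 23) and -0.02 (11 of 23) for members, against 0.01 and 0.02 for all genes. In leukocytes they were -0.14 (4 of 9) versus unstimulated rats and -0.48 (1 of 10) versus lightly touched rats, against -0.00 and -0.11 for all genes. The other probes thus had the higher values in striatum versus unstimulated rats, and the median difference was below 0 on the remaining 5 arrays.

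By the other probes alone, the median over 31 members in striatum was 0.18 versus unstimulated rats and -0.11 versus lightly touched rats, and by RefSeq probes alone, over 70 members, it was 0.03 and 0.02. The salivary medians were -0.08 and -0.10 by other probes, and -0.00 and -0.03 by RefSeq probes. For leukocytes the other probes, over 14 and 15 members, gave -0.14 and -0.39, and the RefSeq probes gave -0.06 and -0.03. In striatum versus unstimulated rats 25 of 31 members were above 0 by other probes, against 65.6% of all genes by such probes, and 46 of 70 by RefSeq probes, against 41.8%. In leukocytes versus lightly touched rats these were 3 of 15 (44.8%) and 22 of 65 (51.8%). On these 2 arrays the member median had the same sign by either kind of probe and a larger size by the other probes. In striatum versus lightly touched rats the sign differed between them. Among the leukocyte members named above, Cox7a2l had -0.97 by its other probe and -0.19 by its RefSeq probe versus lightly touched rats, and Atp5pb had -0.60 and -0.21. Ndufc2 had 2 RefSeq probes in leukocytes, at -0.80 and -0.39 versus unstimulated rats.

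**Figure D4:**
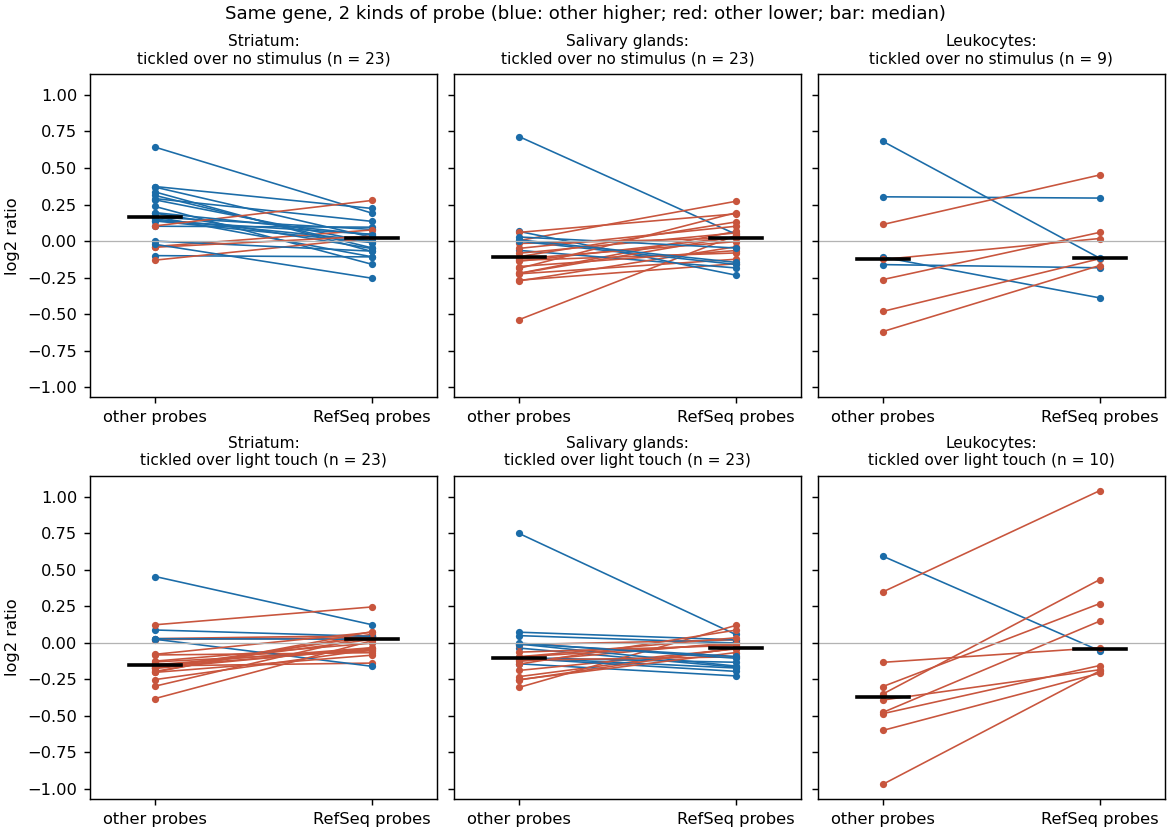
Log2 ratio of members with probes of both kinds, by the other GenBank probes (left) and by RefSeq probes (right) on each of the 6 arrays; lines join the same gene and bars are medians. The other probes lie higher in 19 of 23 genes in striatum versus unstimulated rats and lower in 9 of 10 in leukocytes versus lightly touched rats.

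Related pathways were set beside the complexes. Electron and substrate carriers had medians of 0.05 and -0.03 for striatum, -0.01 and -0.01 for salivary glands, and -0.09 and -0.05 for leukocytes, versus unstimulated and lightly touched rats. Among them cytochrome c (Cycs), which carries electrons to complex IV, had -0.36 and -0.58 in leukocytes, and 2 of 10 carriers were at least 20% lower on each leukocyte array (14.4% and 17.7% of all genes). Assembly factors had -0.02 and 0.02 in striatum and -0.14 and -0.03 in leukocytes, where 4 of 25 and 5 of 23 were at least 20% lower and 2 and 4 were higher, all near or below the shares of all genes (13.4% and 20.6% for higher ones). Genes of the TCA cycle had -0.05 and 0.02 in striatum and -0.16 and -0.09 in leukocytes, with 4 of 13 and 4 of 14 lower and 0 and 1 higher, against these same shares. These mitochondrial lists thus had leukocyte medians below 0 on both arrays, as the complexes did. The trait was not particular to mitochondrial lists, since cytosolic ribosomal protein genes had -0.18 and -0.08. Mitochondrial ribosomal protein genes had -0.14 versus unstimulated rats but 0.00 versus lightly touched rats.

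Glycolysis, which makes ATP outside the mitochondria, lay the other way in leukocytes versus unstimulated rats. There 12 of 14 glycolytic genes were above 0 (52% of all genes), with a median of 0.20 and 3 of them at least 25% higher (13.4%). Pkm, the pyruvate kinase gene, had 0.55, Pfkp, a phosphofructokinase, 0.46, and Aldoa, an aldolase, 0.40, against 0.11, 0.36 and 0.36 versus lightly touched rats. Versus lightly touched rats the median was 0.02, with 7 of 14 above 0 (51.4%) and 3 at least 25% higher (20.6%), near the background. In striatum the glycolytic median was -0.10 versus unstimulated rats, with 4 of 17 above 0, and -0.03 versus lightly touched rats. It was -0.13 and -0.03 in salivary glands. The member medians lay above the glycolytic ones in striatum and salivary glands versus unstimulated rats and below them in leukocytes.

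Ribosomal protein genes and regulators were counted in the same way. Cytosolic ribosomal protein genes, of which 71 were on the platform, had a median of 0.07 in striatum versus unstimulated rats, with 56 of 69 above 0 (45.1% of all genes), and of 0.00 versus lightly touched rats. In leukocytes they had -0.18 with 15 of 69 above 0 versus unstimulated rats (52%), and -0.08 with 28 of 69 versus lightly touched rats (51.4%), where 17 were at least 20% lower (17.7%) and 2 higher (20.6%). Mitochondrial ribosomal protein genes had -0.14 versus unstimulated rats (13 of 55 above 0) and 0.00 versus lightly touched rats (26 of 52). Regulators of mitochondrial transcription and biogenesis had -0.14 and 0.17 in leukocytes over 9 genes, with Tfam, which packages and transcribes mitochondrial DNA, at -0.49 and -0.23 and the nuclear receptor Esrra at -0.10 and 0.65. In striatum they had 0.01 and -0.02, and in salivary glands 0.05 and 0.02. The regulator median therefore changed sign between comparators in leukocytes, which the member median did not. Above 0 were 1 of 9 regulators versus unstimulated rats (52% of all genes) and 5 of 9 versus lightly touched rats (51.4%). The 9 genes were not the same on both arrays. Tefm (0.68) had a value only versus unstimulated rats and Nrf1 (0.49) only versus lightly touched rats.

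**Figure D5:**
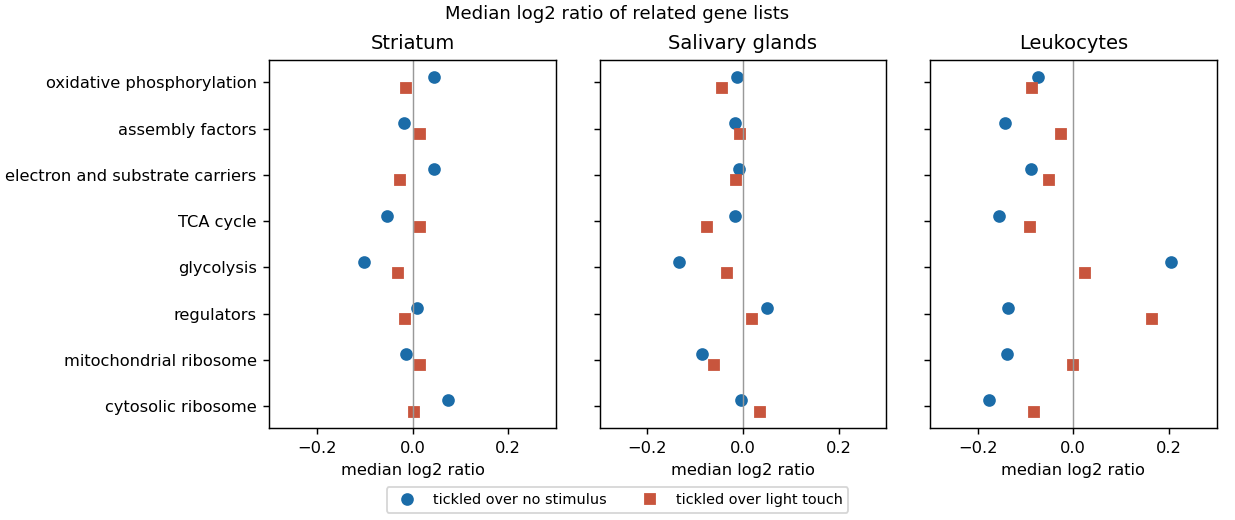
Median log2 ratio of the oxidative phosphorylation members and of related gene lists in each tissue, versus unstimulated rats (circles) and versus lightly touched rats (squares). In leukocytes versus unstimulated rats glycolysis lies at 0.20 and the other lists lie between -0.18 and -0.07.

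Markers of blood cell types also differed from 0 on the leukocyte arrays. The leukocyte marker median was 0.42 versus unstimulated rats (5 of 6 above 0) and 0.03 versus lightly touched rats (4 of 7). The myeloid genes S100a8 and S100a9 had 0.73 and 0.82 versus unstimulated rats, against -0.06 and -0.32 versus lightly touched rats. In the same order of comparators Csf1r, also myeloid, had 0.66 and 0.18, Nkg7 0.19 and 0.37, Ptprc 0.13 and 0.07, and Cd3e -0.12 and -0.07. Cd14 had 0.03 versus lightly touched rats and no value versus unstimulated rats. Platelet markers had 0.38 and -0.43 over 4 genes, and erythroid markers 0.13 and -0.25 over 4 genes. The marker medians thus lay above 0 versus unstimulated rats and near or below it versus lightly touched rats, while the member median lay below 0 in both comparisons. Whether the marker differences have a part in the member values was not tested.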

How the data were processed

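Gene expression in tickled rats was measured on 6 two-colour Agilent arrays, 1 per tissue and comparator, from 500 ng of RNA. The authors deposited 1 log ratio per feature, taken here as log2 and read as tickled (Cy5) over comparator (Cy3) from the dyes in the labels. Agilent Feature Extraction 9.1 was used, per the submitters' processing notes. How values were normalized, when a value was left blank and which log base was taken is not given in these sources. Base 10 is not plausible for a largest absolute value of 7.75, whereas natural logs are possible, and every log2 value would then be 1.44 times larger. A ratio within an array shows unequal amounts and no level, so genes were compared by ratio only.

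Features with 1 symbol in the platform annotation were used, and probes of a gene were combined by their median (44 members had 1 probe, 35 had several). All 79 member symbols matched RefSeq of assembly GRCr8 by Entrez identifier. Members at least 25% higher or 20% lower (a ratio and its inverse), and members 1.5-fold apart, were counted without a test, beside the share of all genes on that array. Named members were those 1.5-fold apart on any array, the 3 highest and 3 lowest per array, core subunits, isoform pairs and the 3 per tissue that differed most between arrays; Cox7a1, Ndufa4l2, Cox6b1 and Cox7b2 of that rule were not among the members. Named after their values were seen were Ndufa6, Ndufs5, Ndufab1, Ndufb7, Uqcrh, Cox7a2l, Atp5mg, Atp5mf, Atp5pb, Atp5mc1, Atp5mc2, Atp5mc3, Atp5pd, Atp5if1, Atp5f1e and Atp5me, and, outside the members, Cycs, Pkm, Pfkp, Aldoa, Tfam and Esrra. Genes for S6 kinases and Rps19bp1 were left out of the ribosomal list. The members and lists were chosen with earlier results of these data known.

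The counting procedure was tested on simulated data. Python 3.11.15, pandas 2.3.3 and numpy 2.4.6 were used. Alternatives were the mean over probes, centring, scaling, genes with agreeing probes, members on all arrays, structural subunits, the mean over members, subtraction of the other tissues and natural logs, and, added after seeing the data, RefSeq probes only.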

Additional observations from a re-analysis of the deposited data

Results flagged for a closer look

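The median of complex II had opposite signs in 2 tissues. It was 0.12 versus unstimulated rats and 0.023 versus lightly touched rats in striatum, and -0.045 and -0.058 in leukocytes. The median of complex IV in striatum was 0.096 and 0.021, that in salivary glands -0.015 on each array, and that in leukocytes -0.046 and -0.17, so its sign in striatum was opposite to that in both other tissues. With RefSeq probes alone this did not hold, since complex IV then had 0.039 in salivary glands and 0.015 in leukocytes versus unstimulated rats, and its mean without Cox4i2 was 0.034 and 0.012 on the salivary arrays. The difference between tissues was not tested, and both arrays of a tissue carry tickled RNA.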

How the results depend on the processing

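No paired analysis was possible because each comparison has 1 array and its values come from no test. Complex medians changed sign in 9 of 30 cases when each gene's median in the other tissues was subtracted, in 5 with the mean over members, in 4 with RefSeq probes only and in 2 of 26 with agreeing probes. With only genes of 2 or more agreeing probes, medians moved to -0.51 for ATP synthase in leukocytes versus lightly touched rats, 0.19 for complex I in striatum versus unstimulated rats, 0.18 and -0.092 for complexes II and III in striatum versus lightly touched rats, -0.14 and -0.12 for complex IV in salivary glands versus unstimulated and lightly touched rats, and, for light touch relative to no stimulus in leukocytes, -0.32 for complex I and -0.39 for complex IV. Other moved medians were 0.024 for ATP synthase in striatum versus lightly touched rats after subtraction of the other tissues, 0.12 for complex II in salivary glands versus unstimulated rats with RefSeq probes, and, with the mean over members, -0.15 for complex IV in salivary glands versus unstimulated rats and -0.16 for light touch relative to no stimulus there.

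Counts are given for striatum, salivary glands and leukocytes in that order, no stimulus before light touch. Members above 0 numbered 13, 7, 4, 5, 3 and 3 with agreeing probes (of 14, 15, 13, 23, 12 and 10), and 35 in salivary glands versus lightly touched rats after subtraction of the other tissues. Members at least 25% higher or 20% lower moved to 1, 3, 3 and 5 with agreeing probes (striatum, salivary glands and leukocytes versus unstimulated rats, leukocytes versus lightly touched rats), to 8, 2, 3 and 1 in striatum and salivary glands after subtraction, to 4, 5, 5 and 5 after scaling (striatum and salivary glands versus lightly touched rats, both leukocyte arrays), to 9, 1, 11, 5 and 36 as natural logs (all but leukocytes versus unstimulated rats), to 2, 3 and 0 with RefSeq probes (striatum and salivary glands versus unstimulated rats, salivary glands versus lightly touched rats) and to 1 in salivary glands versus lightly touched rats for members on all 6 arrays. Members 1.5-fold apart either way moved to 0 in striatum versus unstimulated rats with agreeing probes, subtraction, RefSeq probes or members on all arrays, and to 3 as natural logs. They moved to 0 in salivary glands versus unstimulated rats with agreeing probes or structural subunits, to 2 there after scaling and 4 as natural logs, and versus lightly touched rats to 3 after scaling and 2 as natural logs. In leukocytes versus unstimulated rats they moved to 2 after centring or subtraction, 0 after scaling and 7 as natural logs, and versus lightly touched rats to 2 with agreeing or RefSeq probes, 0 after scaling and 13 as natural logs. The share of all genes past each threshold was not computed under these settings. Scaling and natural logs rescale every gene on an array and not the members alone, so these counts have no background beside them. The number of arrays limits every value, and signal over background was not used here.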

Other observations

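Of the genes that carry electrons or substrates outside the rule, Gpd2, the mitochondrial glycerol phosphate dehydrogenase, had -0.80 in striatum versus unstimulated rats and -0.01 versus lightly touched rats, and 0.28 and 0.10 in salivary glands. Cyc1, the heme subunit of complex III, had -0.52 in striatum versus lightly touched rats and -0.58 in salivary glands versus unstimulated rats, against -0.11 and 0.04 on the other array of each tissue. Both lacked a value in leukocytes. Eno2, the neuronal enolase, had 0.69 and 0.59 in salivary glands, against -0.17 and -0.11 in striatum. Among assembly factors, the protease gene Oma1 had 0.97 versus unstimulated rats and 0.65 versus lightly touched rats in leukocytes, and Ndufaf3, needed for complex I assembly, had 0.25 and 0.67. These genes were named after their values were seen.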
